A study of Homo sapiens with 8 samples.

Results

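The genes described here were low in wild-type HT-29 cells and higher in a MIEN1-edited derivative. They were not all far above the floor of detection in MIEN1_KO or near it in WT: PTGES held 5 counts in 1 MIEN1_KO library, and LINGO1 held 38 to 54 and NKD1 22 to 35 counts in each WT library. They were chosen from the same counts that are described: a mean WT level below 2 CPM (each count scaled to its library's total), a mean in MIEN1_KO of 0.5 CPM or more, and a MIEN1_KO mean at least 4 times the WT mean. MFNG, HLA-B, SEMA6B and genes whose names begin with LINC, ZNF, SLC, HIST or HOX were left out. Of 48162 gene IDs in the files, 36460 averaged below 2 CPM in WT, 1990 of these also reached 0.5 CPM in MIEN1_KO, and 23 met all 3 thresholds (1.16% of the 1990). Leaving out MFNG, HLA-B, SEMA6B, SLC15A3 and LINC00973 by name gave 18 genes, of which 17 are protein-coding and 1 is a lincRNA, on 11 chromosomes. The MIEN1_KO against WT difference of these 18 genes is therefore a description, and no test of it is given. The reverse selection took genes below 2 CPM in MIEN1_KO with 0.5 CPM or more and at least 4 times the level in WT. It held 214 genes after the same names were left out.

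Many genes of muscle, nerve, skin and immune cells are transcribed at very low levels or not at all in intestinal epithelium. Their promoters are held inactive by the absence of their activating factors, by CpG methylation or by Polycomb complexes. MIEN1 (migration and invasion enhancer 1) is a small membrane-anchored protein encoded beside ERBB2 and linked to migration and NF-κB signalling in carcinoma cells.

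Poly-A RNA was sequenced from 4 MIEN1_KO samples and 4 WT samples of HT-29, a human colorectal adenocarcinoma line. MIEN1_KO cells, genotype HT-29-pMIEN1-X, received CRISPR/Cas9 plasmids with guides on both sides of the target by electroporation, then puromycin selection and single-cell cloning, and WT is unedited HT-29. The labels speak of positive clones without saying how many were used and do not describe WT as selected or cloned, so the edit, the selection and the clone cannot be told apart. Each sample pooled RNA from 4 dishes, and the labels call the 4 samples of a group independent biological replicates. The p-values below therefore measure the spread between pools of dishes, not between edited lines.

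Library totals lay between 21940903 and 25148790 counts, so 1 count was worth 0.0398 to 0.0456 CPM. MIEN1 itself had 15, 19, 23 and 16 counts in MIEN1_KO replicates 1 to 4, against 522, 594, 471 and 493 counts in WT. It averaged 0.788 ± 0.187 CPM in MIEN1_KO and 22.1 ± 1.36 CPM in WT (SD, n = 4 each), a log2 fold change of -4.75 (SE 0.13, edgeR quasi-likelihood test, Benjamini-Hochberg adjusted p = 1.01e-11). MIEN1_KO replicate 4 stood apart: a chi-square per degree of freedom over genes was 29.3 to 33.5 between it and the other MIEN1_KO libraries, against 3.42 to 13.2 among those and 2.45 to 7.25 among WT libraries. All 12 colon epithelium markers on the list were detected in both groups, with 4 higher (KRT8, KRT18, KRT19 and KRT20), 5 lower (CDX1, CDX2, TFF3, LGALS4 and CEACAM5) and 3 not called. CDX2, an intestinal homeobox factor, was at 0.266 CPM in MIEN1_KO and 6.33 CPM in WT. Most markers of other cell types were low or at 0. Skeletal muscle markers summed to 0.182 to 0.746 CPM in MIEN1_KO and 0.259 to 0.469 CPM in WT. Of these, 5 of 6 were detected in MIEN1_KO and 4 of 6 in WT, with MYH2 at 0 in every library. Neuronal markers summed to 1.92 to 2.51 CPM in MIEN1_KO and 2.19 to 2.89 CPM in WT, with 6 of 6 detected in both. Endothelial markers summed to at most 0.475 CPM in any library, with KDR at 0. Germ cell markers summed to at most 0.388 CPM in any library, with DDX4, PRM1 and DAZL at 0. Leukocyte markers summed to 708 to 782 CPM in MIEN1_KO and 917 to 952 CPM in WT. Nearly all of this was lysozyme (LYZ), which intestinal epithelium also makes. CD14 was at 3.73 CPM in MIEN1_KO and 3.72 CPM in WT and was not called. CD68, CD3D and MS4A1 were at 0 in every library. Fibroblast markers summed to 3.51 to 4.69 CPM in MIEN1_KO and 2.22 to 3.54 CPM in WT, with COL3A1 at 0 in every library. Most of this was COL1A1, called higher at 3.98 CPM in MIEN1_KO and 2.58 CPM in WT (log2 fold change 0.70).

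Together the 18 genes gave 67.1, 58.6, 66.1 and 81.4 CPM in MIEN1_KO replicates 1 to 4, against 7.89, 6.004, 6.95 and 7.37 CPM in WT replicates 1 to 4. The 2 highest, JSRP1 and LINGO1, supplied more of the MIEN1_KO sum than the other 16 together, and 9 of the 18 averaged under 1 CPM there. None was at 0 over all WT libraries: summed counts ran from 47 (CYTH4) to 1707 (JSRP1) in MIEN1_KO and from 4 (CYTH4) to 176 (LINGO1) in WT. The ratio of the means had a median of 6.93; 4 genes (JSRP1, ELFN2, LY6D and CYTH4) exceeded 10-fold. In all 18, every MIEN1_KO library was above every WT library. The same held for 15.9% of the genes tested and for 10.7% of the 1990 genes past the first 2 thresholds, but the choice of members fixes this count. Because these are bulk samples, more cells with a transcript and more transcript per cell cannot be told apart. Intervals given with ratios are exact Clopper-Pearson bounds at 95% on the summed counts, and since reads carried no molecular identifiers they cover counting error only.

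JSRP1 and SRL encode proteins of the sarcoplasmic reticulum, the calcium store of muscle fibres; positions here and below are GRCh38 gene bounds from GENCODE 29. JSRP1 (ENSG00000167476, chr19:2252252-2269759, minus strand), the junctional protein that binds calsequestrin and the voltage sensor Cav1.1 in skeletal muscle, had 16.6, 14.4, 16.1 and 26.1 CPM in MIEN1_KO replicates 1 to 4, against 0.128, 0.0795, 0.129 and 0.316 CPM in WT replicates 1 to 4. The 4 MIEN1_KO libraries held 346 to 606 counts and the WT libraries 2 to 7, and replicate 4 was the highest of its group in both. The means were 18.3 ± 5.26 CPM in MIEN1_KO and 0.163 ± 0.105 CPM in WT (SD, n = 4 each), a ratio of 112-fold (interval 69.2 to 205), and 96.3-fold without MIEN1_KO replicate 4. SRL (ENSG00000185739, chr16:4189374-4242080, minus strand), sarcalumenin, a calcium-binding glycoprotein of the same store, was far lower: it had 10, 13, 22 and 16 counts in MIEN1_KO, against 4, 3, 3 and 1 in WT. Its means were 0.662 ± 0.253 CPM in MIEN1_KO and 0.116 ± 0.0523 CPM in WT, 5.70-fold (interval 2.91 to 11.8). Per kilobase of exon, JSRP1 reached 9.39 CPM per kb in MIEN1_KO, the highest of the 18, against 0.0838 in WT; SRL reached 0.116 against 0.0204.

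JSRP1 and OAZ1, which lie on opposite strands, overlap at their 5′ ends, and whether the counts are strand-specific is not given. OAZ1, the inhibitor of ornithine decarboxylase, averaged 328 ± 38.0 CPM in MIEN1_KO and 301 ± 4.82 CPM in WT, log2 fold change 0.19 (edgeR adjusted p = 0.0977), and was not called. AMH, anti-Müllerian hormone, ends 179 bases from JSRP1 on the opposite strand and averaged 12.0 ± 3.64 CPM in MIEN1_KO and 5.48 ± 0.848 CPM in WT (SD, n = 4 each), log2 fold change 1.20 (SE 0.20, edgeR adjusted p = 0.000393). Among MIEN1_KO libraries AMH was highest in replicate 4 (17.0 CPM against 10.9, 8.26 and 11.7 in replicates 1, 2 and 3), as was JSRP1. Reads shared among these genes could not be separated. Of 27 other genes of excitation-contraction coupling, 10 had enough counts for the test: CACNB1, a calcium channel beta subunit, was higher at 12.2 CPM in MIEN1_KO and 9.07 CPM in WT (log2 fold change 0.50). JPH1, which ties the store to the surface membrane, was lower at 2.14 CPM in MIEN1_KO and 7.54 CPM in WT (log2 fold change -1.75). RYR3, a calcium release channel, was lower at 0.780 against 1.23 CPM (edgeR adjusted p = 0.0436; the call was lost in 12 of 16 alternative settings), and 7 were not called. With an offset for GC content the list gave 4 higher and 3 lower. Over all 14228 genes tested 21.0% were higher and 20.7% lower (2981 and 2952 genes, against 3530 and 2122 with the GC offset and 2468 and 3752 with upper-quartile factors).

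LINGO1 and ELFN2 are neuronal surface proteins with leucine-rich repeats. LINGO1 (ENSG00000169783, chr15:77613027-77820900, minus strand), part of the Nogo receptor complex that restrains axon growth and myelination, had 17.3, 14.9, 16.3 and 19.02 CPM in MIEN1_KO replicates 1 to 4, against 2.30, 1.51, 1.77 and 1.94 CPM in WT replicates 1 to 4. It was the member with the most WT signal, 38 to 54 counts a library, against 358 to 442 in MIEN1_KO. The means were 16.9 ± 1.72 CPM in MIEN1_KO and 1.88 ± 0.333 CPM in WT (SD, n = 4 each), 8.98-fold (interval 7.71 to 10.6). ELFN2 (ENSG00000166897, chr22:37367960-37427470, minus strand), which binds metabotropic glutamate receptors across the synapse, had 7.13, 6.55, 7.16 and 7.01 CPM in MIEN1_KO replicates 1 to 4, against 0.640, 0.477, 0.777 and 0.362 CPM in WT replicates 1 to 4. Its 4 MIEN1_KO values were the closest of any member, with a coefficient of variation of 4.03%, which is below the 7.85% that counting error alone gives. The means were 6.96 ± 0.281 CPM in MIEN1_KO and 0.564 ± 0.182 CPM in WT, 12.3-fold (interval 9.31 to 16.6). A second ID with the same symbol, an annotated sense-overlapping transcript, held 9 counts over MIEN1_KO and 1 over WT. Per kilobase, LINGO1 stood at 3.45 CPM per kb in MIEN1_KO against 0.384 in WT, and ELFN2 at 0.793 against 0.0642.

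The 250 bases before the ELFN2 start are shown because ELFN2 lies in the one cluster of members and its promoter is dense in CpG. They are RefSeq's, GRCh38.p14 chr22:37427480-37427729, minus strand, written 5′ to 3′ with the 40 CG dinucleotides in capitals.
ELFN2: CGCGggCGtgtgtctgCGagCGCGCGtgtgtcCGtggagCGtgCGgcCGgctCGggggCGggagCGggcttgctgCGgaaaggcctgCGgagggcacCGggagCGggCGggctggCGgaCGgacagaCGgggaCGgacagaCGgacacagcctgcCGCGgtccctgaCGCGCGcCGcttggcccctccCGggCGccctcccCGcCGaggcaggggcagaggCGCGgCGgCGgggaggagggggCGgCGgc
In the 300 bases around this start the observed over expected CpG ratio was 1.06 at a GC content of 78.7%.

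A list of neuronal receptors with leucine-rich repeats, which also holds RTN4, NGFR and TNFRSF19 that have no such repeats, was mixed. Of its 38 genes other than LINGO1, 12 could be tested, with 6 higher (RTN4 among them), 2 lower and 4 not called. Over all genes tested 21.0% were higher and 20.7% lower. No count in any library was found for 12 of the 38. LRRN4 was higher at 12.6 ± 2.06 CPM in MIEN1_KO and 2.87 ± 0.180 CPM in WT (log2 fold change 2.20, edgeR adjusted p = 2.32e-08). FLRT3, which guides axons and was lower, stood at 3.40 CPM in MIEN1_KO and 7.30 CPM in WT, and SLITRK6 was also lower (log2 fold change -0.62). Close relatives and partners behaved as follows: ELFN1 was higher at 5.01 CPM in MIEN1_KO and 3.20 CPM in WT, RTN4R, the Nogo receptor, at 48.7 against 35.3 CPM, and its ligand RTN4 at 466 against 378 CPM. The RTN4R call was lost with the GC offset. LINGO2, LINGO3 and LINGO4 had too few counts to be tested.

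PPP2R2C, NKD1, CYTH4 and PTGES act in signalling. PPP2R2C (ENSG00000074211, chr4:6320578-6563600, minus strand), a B-type regulatory subunit of protein phosphatase 2A that is mainly made in brain, had 5.64, 5.80, 4.97 and 6.88 CPM in MIEN1_KO replicates 1 to 4, against 0.981, 0.676, 0.647 and 0.542 CPM in WT replicates 1 to 4. All MIEN1_KO values were at least 4.97 CPM and all WT values at most 0.981 CPM. The means were 5.82 ± 0.794 CPM in MIEN1_KO and 0.712 ± 0.189 CPM in WT (SD, n = 4 each), 8.18-fold (interval 6.33 to 10.7). Of 12 other phosphatase 2A subunits tested, none was higher and 2 were lower, the catalytic subunit PPP2CB (log2 fold change -0.42) and the regulatory subunit PPP2R2A (-0.32, not called with the GC offset, under which 4 others were higher). PPP2R2B, another B-type subunit of brain, was at 0.139 CPM in MIEN1_KO and 0.120 CPM in WT.

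NKD1 (ENSG00000140807, chr16:50548330-50649249, plus strand), an inhibitor that binds Dishevelled and is itself induced by Wnt signalling, had 6.09, 4.46, 5.15 and 3.70 CPM in MIEN1_KO replicates 1 to 4, against 0.939, 0.875, 0.992 and 1.58 CPM in WT replicates 1 to 4. MIEN1_KO replicate 4 was the lowest of its group and WT replicate 4 the highest of its group. The means were 4.85 ± 1.02 CPM in MIEN1_KO and 1.10 ± 0.327 CPM in WT (SD, n = 4 each), 4.42-fold (interval 3.60 to 5.60), and 4.77-fold without MIEN1_KO replicate 4. Of 12 other Wnt feedback genes and Dishevelled paralogues tested, 6 were higher and 3 lower, against 21.0% and 20.7% over all genes tested. SP5 was higher at 45.6 CPM in MIEN1_KO and 16.9 CPM in WT (log2 fold change 1.50), and AXIN2 slightly so at 62.7 against 54.8 CPM (0.26). The secreted Wnt antagonist DKK1 was lower at 6.83 CPM in MIEN1_KO and 33.0 CPM in WT (-2.20, edgeR adjusted p = 4.74e-10), as was the stem cell receptor LGR5 at 8.66 against 25.8 CPM (-1.51). NKD2 was not called.

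CYTH4 and PTGES sat at the lower limit of the selection. CYTH4 (ENSG00000100055, chr22:37282027-37315345, plus strand), a cytohesin that activates ARF GTPases and is mostly found in leukocytes, had 10, 8, 20 and 9 counts in MIEN1_KO, against 1, 1, 2 and 0 in WT. MIEN1_KO replicate 3 alone held 20 of the 47 MIEN1_KO counts, and leaving it out took CYTH4 below the 0.5 CPM limit. The ratio was 12.1-fold (interval 4.32 to 45.2). Of the 8 other cytohesins and ARF genes 4 were higher, among them ARF6 (log2 fold change 0.39), and CYTH2 was lower (-0.33). With the GC offset 3 of the 8 were higher and with upper-quartile factors 2, against 21.0% over all genes tested in the main fit. PTGES (ENSG00000148344, chr9:129738331-129753047, minus strand), the inducible synthase that makes prostaglandin E2, had 17, 9, 5 and 17 counts in MIEN1_KO, against 1, 2, 3 and 2 in WT, a ratio of 5.96-fold (interval 2.83 to 14.8). Other genes of prostaglandin E2 went both ways, with 4 higher and 3 lower of 8 tested, against 21.0% and 20.7% over all genes tested. PTGS2, the inducible cyclooxygenase upstream of PTGES, was lower at 1.62 ± 0.421 CPM in MIEN1_KO and 15.4 ± 1.42 CPM in WT (log2 fold change -3.18, edgeR adjusted p = 1.18e-09), and HPGD, which degrades the product, was lower at 6.43 against 24.0 CPM (-1.84). PTGS1, the constitutive cyclooxygenase, was higher at 34.5 against 19.4 CPM (0.89).

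**Figure D1:**
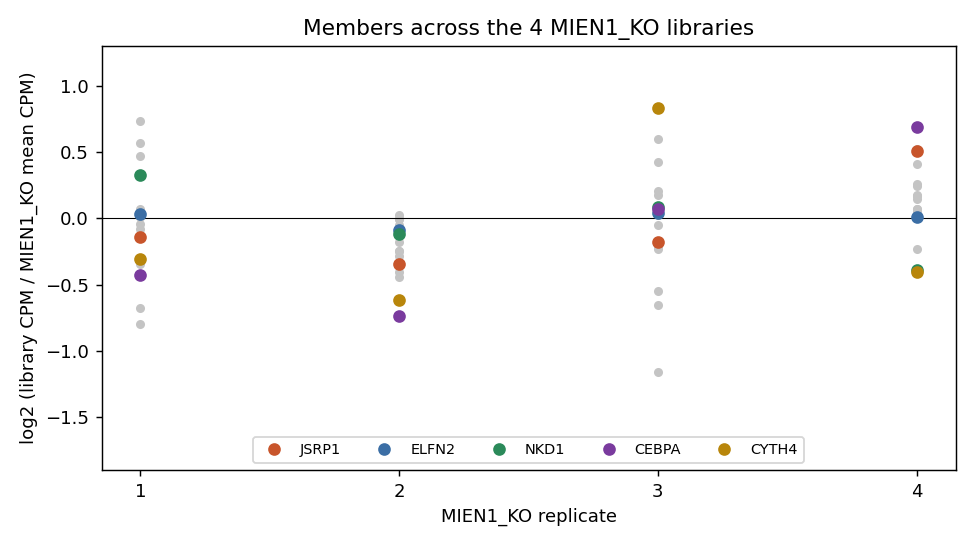
The log2 of the CPM of 17 of the 18 members in a MIEN1_KO library over the gene's mean across the 4 MIEN1_KO libraries, by replicate, with 5 coloured and the rest grey. CEBPA and JSRP1 reach their highest values in replicate 4, NKD1 and CYTH4 are the lowest points there, ELFN2 stays near 0, and most members sit below 0 in replicate 2.

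CEBPA and ETV7 encode transcription factors. CEBPA (ENSG00000245848, chr19:33299934-33302564, minus strand), a basic leucine zipper factor of myeloid, fat and liver cell differentiation, had 2.94, 2.38, 4.15 and 6.37 CPM in MIEN1_KO replicates 1 to 4, against 0.896, 0.795, 0.690 and 1.08 CPM in WT replicates 1 to 4. Replicate 4 was well above replicates 1 to 3 of MIEN1_KO, at 2.02 times their mean, and all 4 exceeded every WT value. The means were 3.96 ± 1.77 CPM in MIEN1_KO and 0.867 ± 0.168 CPM in WT (SD, n = 4 each), 4.57-fold (interval 3.58 to 5.87), but 3.64-fold without MIEN1_KO replicate 4, which is under the 4-fold limit. Of 6 other C/EBP family and Tribbles genes tested 4 were higher and 2 lower, or 3 and 1 with the GC offset. In the main fit 21.0% of all genes tested were higher and 20.7% lower. CEBPB was higher at 214 CPM in MIEN1_KO and 121 CPM in WT (log2 fold change 0.90). TRIB2, a pseudokinase that targets CEBPA protein for degradation, was higher at 11.0 against 4.16 CPM (1.47). CEBPG, 70.8 kb from CEBPA, was lower at 76.9 against 114 CPM (-0.51). ETV7 (ENSG00000010030, chr6:36354091-36387800, minus strand), an ETS-family repressor that interferon induces, had 1.66, 1.63, 1.41 and 1.85 CPM in MIEN1_KO replicates 1 to 4, against 0.384, 0.199, 0.173 and 0.181 CPM in WT replicates 1 to 4. The MIEN1_KO values lay within 1.41 to 1.85 CPM, and WT replicate 1 was the highest WT value. The means were 1.64 ± 0.179 CPM in MIEN1_KO and 0.234 ± 0.101 CPM in WT, 6.99-fold (interval 4.46 to 11.5). Its closest paralogue ETV6 was at 41.2 CPM in MIEN1_KO and 34.6 CPM in WT (edgeR adjusted p = 0.0276, lost in 5 alternative settings).

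SPRR1B, LY6D and ADAMTS15 belong to surface and barrier biology. SPRR1B (ENSG00000169469, chr1:153031202-153032900, plus strand), a small proline-rich protein cross-linked into the cornified envelope of squamous epithelia, had 21, 15, 21 and 20 counts in MIEN1_KO, against 2, 4, 6 and 0 in WT. Every MIEN1_KO library was above the highest WT library, and the means were 0.828 ± 0.142 CPM in MIEN1_KO and 0.126 ± 0.110 CPM in WT (SD, n = 4 each), 6.58-fold (interval 3.49 to 13.0). SPRR1A, its nearest paralogue and a possible sharer of reads, was at 0.0859 CPM in MIEN1_KO and 0.138 CPM in WT, and IVL, involucrin, at 1.88 against 1.55 CPM was not called. The linker proteins PPL and EVPL, also made in simple epithelia, were higher (log2 fold changes 0.42 and 0.44, EVPL not with the GC offset).

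The SPRR1B promoter is shown because it has no CpG at all and holds 2 copies of TGANTCA, the letters AP-1 factors bind. It is RefSeq's, GRCh38.p14 chr1:153030953-153031202, plus strand, 250 bases before the start, 5′ to 3′, with the motif in capitals; the copies begin 141 and 111 bases before the start.
SPRR1B: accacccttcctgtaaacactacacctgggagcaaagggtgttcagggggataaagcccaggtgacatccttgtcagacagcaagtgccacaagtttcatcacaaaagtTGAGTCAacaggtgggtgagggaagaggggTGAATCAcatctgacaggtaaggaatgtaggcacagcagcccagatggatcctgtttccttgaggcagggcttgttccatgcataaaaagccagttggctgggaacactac
TGANTCA, searched on both strands, was also found for ANO3 and LINGO1, hence in 3 of the 8 members with a RefSeq window, and in 9.37% of all genes with one. By window it was in 5 of the members' 22, against 7.71% of all windows. Windows of a gene can overlap, so the same site can count more than once. The LINGO1 windows at chr15:77820152-77820451 and chr15:77820283-77820582 overlap and both hold the motif. Shares by gene are not on the same footing, since these members average 2.75 windows each (LINGO1 9, ANO3 3) and all genes 1.29.

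LY6D (ENSG00000167656, chr8:142784880-142786592, minus strand), a GPI-anchored protein of keratinocytes and early B cells, had 1.86, 1.67, 2.01 and 2.37 CPM in MIEN1_KO replicates 1 to 4, against 0.171, 0.0795, 0.216 and 0.181 CPM in WT replicates 1 to 4. No MIEN1_KO library had fewer than 40 counts and no WT library more than 5. The means were 1.98 ± 0.294 CPM in MIEN1_KO and 0.162 ± 0.0581 CPM in WT (SD, n = 4 each), 12.2-fold (interval 7.29 to 22.5). Of 6 other LY6/uPAR genes tested LY6E was higher at 421 CPM in MIEN1_KO and 236 CPM in WT (log2 fold change 0.91), LYPD6 was lower (-1.57) and 4 were not called. ADAMTS15 (ENSG00000166106, chr11:130448974-130476641, plus strand), a secreted metalloprotease that cleaves proteoglycans, had 19, 10, 8 and 13 counts in MIEN1_KO, against 1, 1, 3 and 1 in WT, 8.28-fold (interval 3.59 to 23.9). Of 5 other ADAMTS proteases tested, ADAMTS17 (log2 fold change -1.58) and ADAMTS6 (-0.50) were lower, and ADAMTS14 was higher at 0.501 against 0.217 CPM, a call lost in 9 alternative settings.

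ANO3 and IFITM5 are membrane proteins. ANO3 (ENSG00000134343, chr11:26309599-26663288, plus strand), an anoctamin of the brain, had 1.86, 2.42, 3.19 and 2.02 CPM in MIEN1_KO replicates 1 to 4, against 0.853, 0.517, 0.388 and 0.542 CPM in WT replicates 1 to 4. It was the member closest to the 4-fold limit, with means of 2.37 ± 0.592 CPM in MIEN1_KO and 0.575 ± 0.197 CPM in WT (SD, n = 4 each) and a ratio of 4.13-fold (interval 3.03 to 5.63). Among 6 other anoctamins tested, ANO8 and ANO7 were higher and ANO6 lower, all by less than 0.54 on the log2 scale and none of the 3 called with the GC offset.

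IFITM5 (ENSG00000206013, chr11:298200-299526, minus strand), the osteoblast member of the interferon-induced transmembrane family, had 23, 9, 8 and 14 counts in MIEN1_KO, against 2, 2, 1 and 3 in WT. MIEN1_KO replicate 1 was the highest, with 23 of the 54 counts, and leaving it out took IFITM5 below the 0.5 CPM limit. The means were 0.574 ± 0.275 CPM in MIEN1_KO and 0.0859 ± 0.0380 CPM in WT, 6.68-fold (interval 3.21 to 16.5). All 4 other family members tested were higher, against 21.0% of all genes tested. IFITM2, 8.11 kb away, averaged 100.3 ± 13.5 CPM in MIEN1_KO and 54.6 ± 2.97 CPM in WT (log2 fold change 0.95, edgeR adjusted p = 6.69e-06), IFITM3 51.0 against 30.4 CPM (0.82), IFITM10 9.19 against 4.46 CPM (1.11) and IFITM1 1.59 against 0.551 CPM (1.61). IFITM1 lies within the bounds of IFITM2 on the same strand, and how reads in both were counted is not given. PGGHG, 2.09 kb on the other side of IFITM5, was also higher at 238 against 131 CPM (0.93). The IFITM5 promoter is shown because it sits between these genes and, with 12 CG dinucleotides (capitals), is much poorer in CpG than that of ELFN2. It is RefSeq's, GRCh38.p14 chr11:299527-299776, minus strand, 5′ to 3′.
IFITM5: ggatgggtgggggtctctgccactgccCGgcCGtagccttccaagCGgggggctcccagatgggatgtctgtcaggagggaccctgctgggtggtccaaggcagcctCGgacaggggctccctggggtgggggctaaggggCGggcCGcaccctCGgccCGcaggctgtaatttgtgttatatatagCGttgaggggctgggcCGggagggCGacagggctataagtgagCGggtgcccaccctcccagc
In the 300 bases around this start the observed over expected CpG ratio was 0.50.

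ZBP1 (ENSG00000124256, chr20:57603846-57620576, minus strand), a sensor of Z-form nucleic acids that triggers necroptosis through RIPK3, had 9, 15, 16 and 20 counts in MIEN1_KO, against 1, 3, 3 and 2 in WT. The means were 0.647 ± 0.206 CPM in MIEN1_KO and 0.0954 ± 0.0389 CPM in WT (SD, n = 4 each), 6.78-fold (interval 3.31 to 15.4). Of its 6 partners 5 were higher, all by a small margin: RIPK3 at 11.1 CPM in MIEN1_KO and 7.78 CPM in WT (log2 fold change 0.58), FADD (0.48), ADAR (0.31), the necroptosis effector MLKL (0.30) and CASP8 (0.27), while RIPK1 was not called. These 5 remained called and higher with the GC offset, upper-quartile factors and DESeq2 size factors. The partners were listed once the members were known, and 21.0% of all genes tested were higher. The lincRNA AL390778.2 (ENSG00000233936, chr9:135245696-135252708, minus strand) had 18, 15, 17 and 19 counts in MIEN1_KO, against 0, 3, 3 and 4 in WT, 6.90-fold (interval 3.56 to 15.1).

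The partner and family lists were drawn up once the 18 genes were known. Over all of them 40 of 93 genes tested were higher (43.0%) and 16 lower (17.2%), against 21.0% and 20.7% over all genes tested. The lists of excitation-contraction coupling and of neuronal receptors are not part of the 93. With the GC offset 36 were higher and 15 lower, against 3530 and 2122 of the 14228 genes tested. The 42 tested genes of DNA methylation and Polycomb had 8 higher and 8 lower (19.05% each way, near the shares over all genes tested), among them the histone H3 demethylase KDM6B (log2 fold change 0.51) and CBX6 (0.83) higher and HDAC2 (-0.65) lower.

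Within the genome the members were scattered, apart from CYTH4 and ELFN2, which lie 52.6 kb apart on chromosome 22. No other members were within 100 kb of each other, and the next closest pair, PTGES and AL390778.2, is 5493 kb apart. In the stretch from 500 kb before CYTH4 to 500 kb after ELFN2 (chr22:36782027-37927470), 13 of 18 tested other genes were higher, 5 were not called and none was lower (edgeR adjusted p), against 21.0% higher over all genes tested. The strongest was MFNG, a Fringe glycosyltransferase of the Notch pathway, 41.6 kb from ELFN2. It averaged 48.4 ± 4.89 CPM in MIEN1_KO and 1.29 ± 0.214 CPM in WT (SD, n = 4 each), log2 fold change 5.30. MFNG met all 3 thresholds and was left out by name only, so its call was fixed by the rule. It is counted among the 13. RAC2, a small GTPase of blood cells, 37.6 kb from CYTH4, was at 11.8 ± 1.68 CPM in MIEN1_KO and 5.76 ± 0.225 CPM in WT (log2 fold change 1.11, edgeR adjusted p = 8.48e-06). KCTD17 (0.84), PDXP (0.84), CDC42EP1 (0.75) and SH3BP1 (0.67) followed, and TST, CARD10, MPST, C1QTNF6, TRIOBP, ANKRD54 and H1F0 were higher by 0.32 to 0.60. With the GC offset 11 of the 18 were called higher, TST and CARD10 no longer, against 3530 of the 14228 genes tested.

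The nearest tested gene on each side of each member gave 34 different genes, between 0.179 and 3479.3 kb away. Of these 15 were higher (44.1%), 5 lower (14.7%) and 14 not called, with a median log2 fold change of 0.23, against 21.0% higher, 20.7% lower and a median of -0.02 over all genes tested. The 20 within 100 kb of a member had 12 higher and 2 lower. Outside the chromosome 22 stretch 13 of 32 were higher and 5 lower. Upward changes of 2-fold or more were seen in 5 of the 34 (MFNG, RAC2, AMH, WFS1 and PMEPA1), against 1.72% of all genes tested. MFNG, counted among the 34, met all 3 thresholds, so its call was fixed by the rule. WFS1, an endoplasmic reticulum calcium regulator 17.3 kb from PPP2R2C, was at 326 ± 14.3 CPM in MIEN1_KO and 104 ± 3.97 CPM in WT (log2 fold change 1.72, edgeR adjusted p = 3.80e-10). PMEPA1, a TGF-β target 27.8 kb from ZBP1, was at 309 ± 27.0 CPM in MIEN1_KO and 156 ± 4.13 CPM in WT (log2 fold change 1.06). ADCY9, an adenylate cyclase 73.2 kb from SRL, went the other way at 0.681 against 1.51 CPM (-1.09), as did both neighbours of CEBPA. With the GC offset 11 of the 34 were higher and 3 lower, against 3530 higher and 2122 lower of the 14228 genes tested. The share among neighbours was not tested against other genes.

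Transcript GC content was high: the members' median was 58.9%, against 48.8% for the genes tested, and 17 of the 18 were above 48.8%. For the 11 members that could be fitted, an offset for GC content moved the log2 fold change by -0.50 to 0.23, and they lay at 1.89 to 6.36 with it, against 2.09 to 6.87 without it. RefSeq promoter windows were matched for 8 members: ANO3, CEBPA, ELFN2, IFITM5, LINGO1, PPP2R2C, PTGES and SPRR1B. Taking the window richest in CpG for each gene, the observed over expected ratio exceeded 0.6 in 5 of the 8, from 0.812 for ANO3 to 1.14 for PPP2R2C, against 51.9% of 27305 genes, and by window in 8 of 22, against 48.8% of all windows; PTGES had 0.351 and SPRR1B 0. Other motifs searched on both strands were TATAAA (2 members, 14.0% of genes), CAGCTG (3 members, 21.1%, or 7 of 22 windows against 17.9% of all windows), GGGGCGGGG (2 members, 18.5%), TTGCGCAA (none, 0.172%), an interferon response element (none, 4.38%) and a kappa B element (none, 0.227%); no motif contains another, and a match describes letters only. The other 10 members had no entry. Of the 18 genes 8 overlap another annotated gene, and apart from OAZ1 no overlapping gene held more than 9 counts in either group.

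The MIEN1_KO libraries were not alike for these genes. Of the 18, 15 were above the mean of replicates 1 to 3 in replicate 4, with a median of 1.16 times, whereas 42.9% of genes tested were and their median was 0.959 times. Replicate 4 was the highest for 9 members, replicate 3 for 5, replicate 1 for 4 and replicate 2 for none. The part of that library in the results was not tested beyond leaving it out, after which 15 of the 18 still met all 3 thresholds. CEBPA and PTGES were among the 3 that did not. Leaving out MIEN1_KO replicate 1 took out 4 members, ADAMTS15, IFITM5 and PTGES among them. Leaving out MIEN1_KO replicate 3 took out ANO3 and CYTH4, WT replicate 2 ANO3 and LINGO1, and WT replicate 3 ANO3. The median coefficient of variation among MIEN1_KO libraries was 26.8% for the members and 23.0% for those 1990 genes. Scatter beyond counting error (chi-square per degree of freedom over 3) was seen in 7 members, led by JSRP1 at 35.2 and CEBPA at 18.7. The share of all genes over 3 was not counted. Between pairs of MIEN1_KO libraries the value over genes was 3.42 to 33.5, so values over 3 were not particular to the members.

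Just inside the 4-fold limit were ANO3, NKD1 and CEBPA (4.13, 4.42 and 4.57), and just outside ALDH3B2, NLRP6 and ARHGAP6 (3.89, 3.76 and 3.72). Just inside the 0.5 CPM limit in MIEN1_KO were PTGES and CYTH4 (0.510 and 0.512 CPM), and just outside SHROOM2, C3 and TSPAN2 (0.399, 0.373 and 0.330 CPM). Nearest inside the 2 CPM limit in WT were LINGO1, NKD1 and CEBPA (1.88, 1.10 and 0.867 CPM), and outside KLHL29, TNC and UBE2L6 (2.07, 2.20 and 2.61 CPM). Of the 18 members, 11 had enough counts to enter the fit over all genes and 7 did not, among them CYTH4, ZBP1, PTGES, ADAMTS15, SRL and IFITM5.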

How the data were processed

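The authors deposited a table of raw counts per Ensembl gene ID for each of 8 libraries. Reads were aligned with TopHat2 2.0.9 to GRCh38 and counted with HTSeq 0.6.1, per the submitters' processing notes. The annotation release, the strand option and the handling of multiply mapped reads were not given in the sources used here. Symbols, positions and gene types came from GENCODE 29 (GRCh38), which held 45342 of 48162 IDs, and the other 2820 IDs carried 1.09% of counts.

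CPM was count over library total. Over all genes, edgeR 4.0.16 (R 4.3.3) was run with its default expression filter (14228 genes kept, 33934 set aside), TMM factors of 0.929 to 1.03 and robust quasi-likelihood tests, called at Benjamini-Hochberg adjusted p below 0.05. The GC offset is a loess fit of log ratios on transcript GC, span 0.5. The script was tested on simulated counts. Groups came from the genotype labels. Replicate numbers were not taken to pair samples, so no block was used. Alternatives were DESeq2 1.42.0 size factors and Wald test, limma 3.58.1 voom, upper-quartile factors, other filters, the GC offset, a replicate block, each library left out, and other thresholds for membership. Promoter windows (250 bases before to 50 after a start) are RefSeq's, GRCh38.p14.

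Members and lists were chosen with earlier results of these data known. Genes named are 17 of the 18 members, MIEN1, genes nearest the thresholds, up to 3 genes of smallest p in a list, and neighbours; other relatives, partners and 2-fold neighbours were named after their values were seen. The values of 1 member are not reported here, but it is counted in every total over the 18.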

Additional observations from a re-analysis of the deposited data

Results flagged for a closer look

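In 36 groups of 4 libraries, 1 for each of the 18 genes in MIEN1_KO and in WT, the gap of the highest or lowest library to its nearest fellow was compared with Dixon's 95% critical share of the range. Chance marks about 1 in 20 groups, and 4 were marked. CYTH4 had 0.912 CPM in MIEN1_KO replicate 3, above the other MIEN1_KO libraries. NKD1 had 1.58 CPM in WT replicate 4, ETV7 had 0.384 CPM in WT replicate 1 and ADAMTS15 had 0.129 CPM in WT replicate 3, each above the other WT libraries. For ADAMTS15 this is 3 counts against 1 count.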

How the results depend on the processing

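All 199 alternative log2 fold changes computed for the 18 genes kept their direction, and 197 moved by less than the spread between replicates. LINGO1 moved to 2.99 under the GC offset, with or without the replicate block. The members were chosen for at least a 4-fold difference in these libraries, so the kept direction follows from the choice. The membership itself depends on the thresholds: 33 genes met a 3-fold limit, 15 a 5-fold limit and 9 a limit of 1 CPM in MIEN1_KO, and leaving out 1 library gave 14 to 22 genes, of which 14 to 18 were members. Same-numbered libraries correlated at -0.17, 0.41, 0.11 and 0.036 in their deviations from group means, and differently numbered ones at -0.32 to 0.42. These values gave no sign of pairing by number but cannot decide whether samples were handled in pairs. With the replicate block 3002 genes were called higher and 2982 lower, with 15 neighbours higher and 4 lower. With the GC offset and the replicate block together 1961 genes were called lower. Neighbours called lower numbered 8 with upper-quartile factors and 3 with a filter of 50 counts or with the GC offset, with or without the block, and 1 gene near CYTH4 and ELFN2 was called lower with offset and block. Of DNA methylation and Polycomb genes 13 were higher with the GC offset and 13 lower with upper-quartile factors. Leaving out 1 library gave 13 to 18 neighbours higher and 12 to 15 genes near CYTH4 and ELFN2 higher. The causes were not tested. Depth limits the 9 members under 1 CPM, where 47 to 77 MIEN1_KO counts and 4 to 12 WT counts carry the ratio.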
